A study of Aspergillus niger with 24 samples.

Results

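In the wild-type (WT) strain of Aspergillus niger, 99 of the 11846 genes in the deposited table (0.836%) had their peak at labelled day 3 and in no other group of the study. Each had a WT day 3 mean of at least 10 TPM, at least 3 times the highest mean of the other 7 groups. TPM gives transcript abundance per gene length, relative to the library total. A mean over all 24 libraries under 1000 TPM was also required, and 0 genes were kept out by that limit alone. The genes were chosen by their mean TPM in all 8 groups, so their height in WT day 3 is described here and not tested.

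The study sequenced RNA from hyphae of strain CICC2629 as WT and of a strain of the same CICC2629 background that expresses the lipase TLL. Lipases are enzymes that cleave fats. Both genotypes grew on potato dextrose agar at 28 °C, with no other agent named in the labels. Each genotype was sampled on labelled days 1, 2, 3 and 4, with 3 libraries in each of the 8 groups, and sampling times of 0, 24, 48 and 72 hours are stated without being tied to a day. Which promoter drives TLL, and how many clones the genotype labelled "TLL expressing strains" holds, was not given in the sources used here. Whether replicates are separate cultures is not stated either, and p-values then measure no more than the spread among these libraries, which may be technical.

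Aspergillus niger is a filamentous mould used for making secreted enzymes and organic acids. As background, a mycelium ages from the growing edge inward, and fungi of this genus switch on groups of genes for nutrient uptake, secreted hydrolases, development and secondary metabolites at particular stages of growth. Genes for one secondary metabolite often lie side by side on a chromosome and are transcribed together. The files give NRRL3 gene IDs without names or products, and 0 of the IDs matched the 14404 genes of the RefSeq table ASM285v2. No gene below is therefore given a name or a role, and no sequence is shown. RNA from whole mycelium also cannot tell a smaller share of cells that use a gene from less RNA per cell.

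Every library summed to 1000000 TPM within 1 TPM. Such values keep no record of sequencing depth, so depth is unknown and no counting interval can be formed. The number of genes at 1 TPM or more ran from 7918 to 8935 over the libraries, and 0 pairs of libraries were identical. All WT day 3 libraries lay above all 21 other libraries in 99 of the 99 peak genes. Among the 9558 genes kept for tests, those with 3 or more libraries at 1 TPM or above, 5.29% had this order, which the choice of the peak genes had used.

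In WT day 3 the 99 genes covered a wide range of abundance, from 10.6 to 3321 TPM with a median of 68.4 TPM. The mean was between 10 and 20 TPM for 21 genes, between 20 and 100 TPM for 42, between 100 and 1000 TPM for 32, and above 1000 TPM for 4. Outside WT day 3 the same genes were mostly at low levels. The median of their group means was 3.15 TPM in WT day 1, 3.60 in WT day 2, 3.95 in WT day 4, 2.46 in TLL day 1, 3.88 in TLL day 2, 2.40 in TLL day 3 and 4.57 in TLL day 4. A mean under 1 TPM was found for 24 of the 99 genes in TLL day 4, for 26 or 27 in WT day 1, WT day 4 and TLL day 2, and for 31 or 32 in the other 3 groups. A mean of at least 10 TPM was found for 25 to 33 genes in each group other than WT day 3. Their mean over the 21 other libraries had a median of 3.68 TPM, against 21.7 TPM over all 9558 genes.

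**Figure D1:**
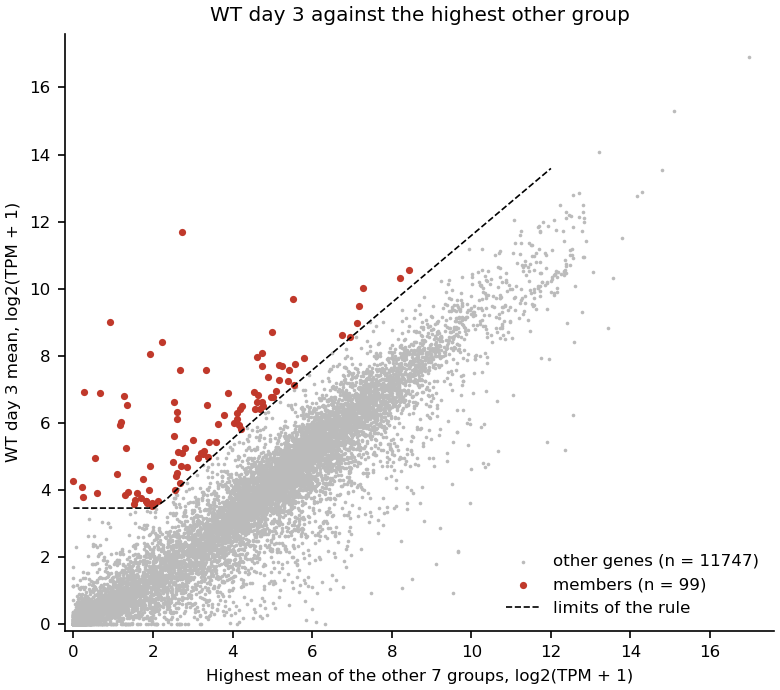
Each point is a gene, with its highest mean among the other 7 groups on the x axis and its WT day 3 mean on the y axis, both as log2(TPM + 1). The 99 peak genes (red) lie above the dashed limits that define them, and the other genes are grey.

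The ratio of the WT day 3 mean to the highest other group mean had a median of 5.41 and ran from 3.07 to 587 over the 98 genes where it can be formed. It lay between 3 and 4 for 25 genes, between 4 and 5 for 22, between 5 and 10 for 25, between 10 and 50 for 15, and above 50 for 11. Most of the genes were thus present elsewhere at a lower level, and a minority were near 0 outside WT day 3.

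The most abundant gene, NRRL3_04321, stood at 3286, 3550 and 3126 TPM in WT day 3 replicates 1, 2 and 3. Its highest value in any other library was 8.88 TPM, in TLL day 4 replicate 1, and it was listed at 0 in all libraries of TLL day 1 and TLL day 3. The ratio of 587 was the highest of the 98. NRRL3_06675 came next in abundance, at 1471, 1579 and 1465 TPM in the WT day 3 libraries. It was expressed in every library, with 42.41 TPM as its lowest and 723 TPM as its highest value outside WT day 3, and its ratio was 4.34. The most abundant gene was thus nearly absent elsewhere, while the next was present in every group. The other genes above 1000 TPM in WT day 3 were NRRL3_00398 and NRRL3_03465. NRRL3_03465 stood at 1045, 1022 and 1065 TPM there and at 61.12 to 228 TPM elsewhere.

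NRRL3_11482 had the second-largest ratio, 94.2, among the genes with at least 1 TPM in another group. It reached 264, 145 and 378 TPM in WT day 3 replicates 1, 2 and 3, and its highest other mean was 2.79 TPM, in TLL day 4. NRRL3_02940, singled out after its values were seen, stood at 518, 591 and 441 TPM in the WT day 3 libraries and at 1.33 TPM or less in all others.

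A subset of 6 peak genes stayed under 1 TPM in every library outside WT day 3. NRRL3_11480 was the highest of them in WT day 3, at 117, 65.59 and 175 TPM, with at most 0.370 TPM elsewhere. NRRL3_04320 had 122, 123 and 107 TPM and at most 0.890 TPM elsewhere. NRRL3_04330 was listed at 0 in all 21 other libraries and at 30.18, 15.09 and 8.95 TPM in WT day 3 replicates 1, 2 and 3. Since a listed 0 may come from an estimate that failed, its ratio was not formed. The other 3, with WT day 3 means of 12.9 to 15.9 TPM, are NRRL3_06290, NRRL3_08865 and NRRL3_05194.

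**Figure D2:**
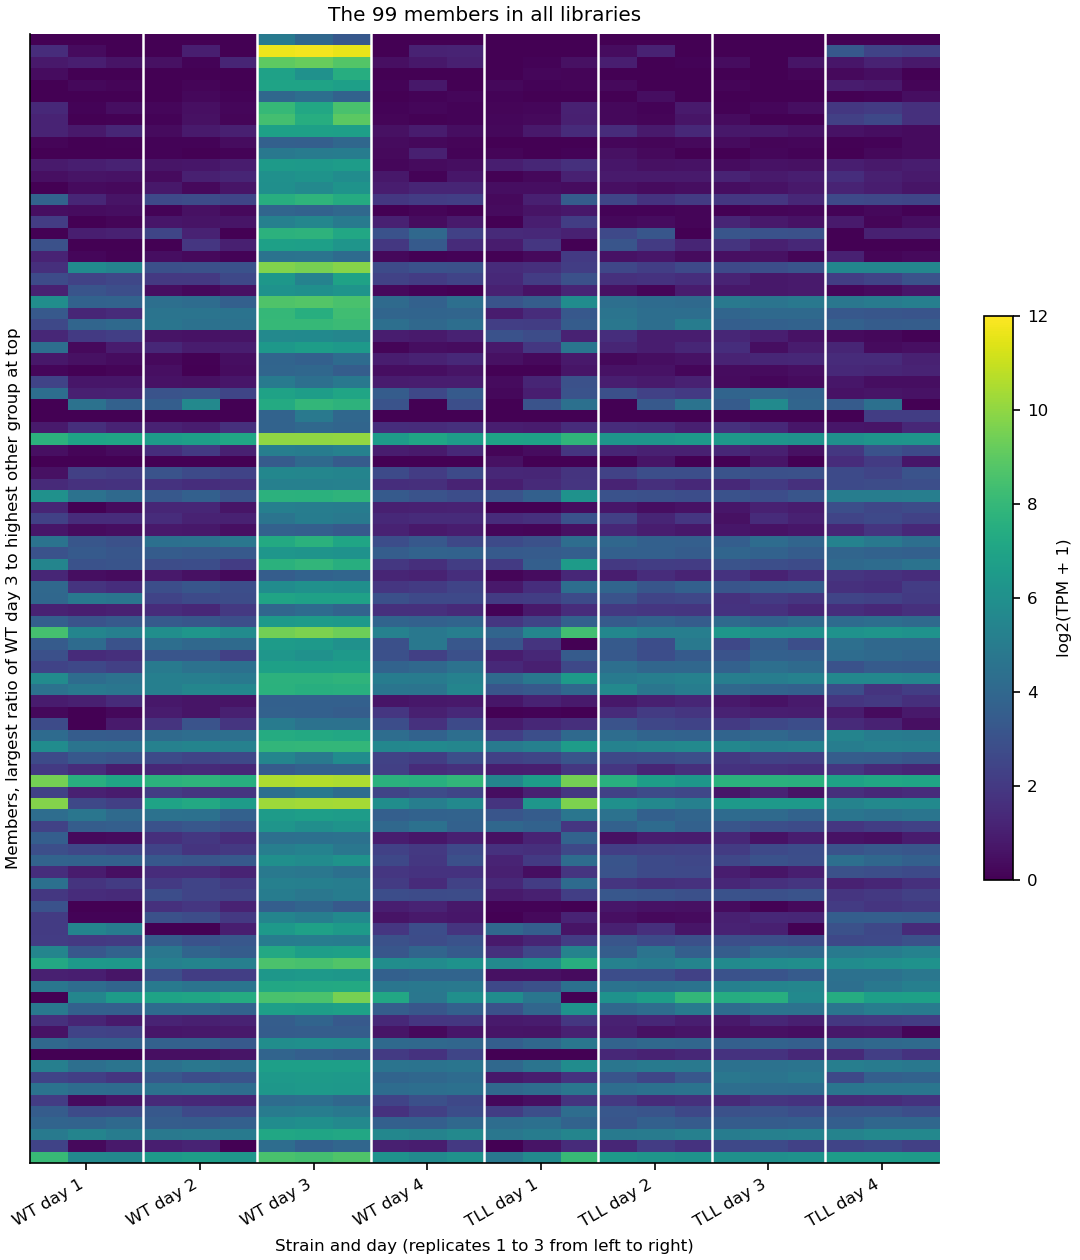
Colour gives log2(TPM + 1) for the 99 peak genes (rows, largest ratio at the top) in the 24 libraries (columns, by strain and day, replicates 1 to 3 from left to right). The WT day 3 columns are brighter than all others in every row, and WT day 1 replicate 1 and TLL day 1 replicate 3 are brighter than the rest of their groups in many rows.

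The 3 WT day 3 libraries gave similar values for most of the 99 genes. The coefficient of variation between them had a median of 10.2%, against 7.45% over the 5936 genes of at least 10 TPM in WT day 3. The highest replicate was at least 2 times the lowest in 6 peak genes. Of these, NRRL3_11480, NRRL3_11481 and NRRL3_11482 have consecutive IDs and the same order of replicates. NRRL3_11481 stood at 345, 175 and 508 TPM in replicates 1, 2 and 3, so all 3 genes were highest in replicate 3 and lowest in replicate 2. NRRL3_08370 had this order too, at 80.99, 38.38 and 118 TPM. NRRL3_04330 and NRRL3_03764 are the others.

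Genes on both sides of each limit had close values. NRRL3_04711 was the lowest included gene by abundance, with a WT day 3 mean of 10.6 TPM, and NRRL3_08010 was left out at 9.81 TPM with a ratio of 3.03. By ratio, NRRL3_02127 was the last included, at 375 TPM in WT day 3 against 122 TPM in WT day 1, a ratio of 3.07. That WT day 1 mean came from 271.14, 48.45 and 47.51 TPM in replicates 1, 2 and 3, so replicate 1 set most of it. NRRL3_01690 was left out at 25.8 TPM against 8.60 TPM in TLL day 1. A ratio between 2 and 3 was found in 82 further genes of at least 10 TPM in WT day 3. The highest mean over all libraries among the 99 was 416 TPM, in NRRL3_04321.

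The same limits applied to each other group gave fewer genes than the 99 of WT day 3. TLL day 4 had 57, WT day 1 had 34, WT day 4 and TLL day 1 had 3 each, WT day 2 had 2, and TLL day 2 and TLL day 3 had 1 each. The number was 165 when TLL day 4 was not counted among the other groups of WT day 3. In 66 further genes, then, a TLL day 4 mean above the limit was what kept them off the list.

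Summed over the 99 genes, the WT day 3 libraries held 17661, 17812 and 18257 TPM, which is 1.77% to 1.83% of each library. Without NRRL3_04321 the sums were 14375, 14262 and 15131 TPM. The other 21 libraries held 612 to 3626 TPM, and 2 day 1 libraries were the highest of them. WT day 1 replicate 1 held 3453 TPM against 1144 and 1061 TPM in replicates 2 and 3. TLL day 1 replicate 3 held 3626 TPM against 612 and 870 TPM in replicates 1 and 2. The days 2 to 4 groups other than WT day 3 had no such gap, with sums of 1070 to 1514 TPM.

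**Figure D3:**
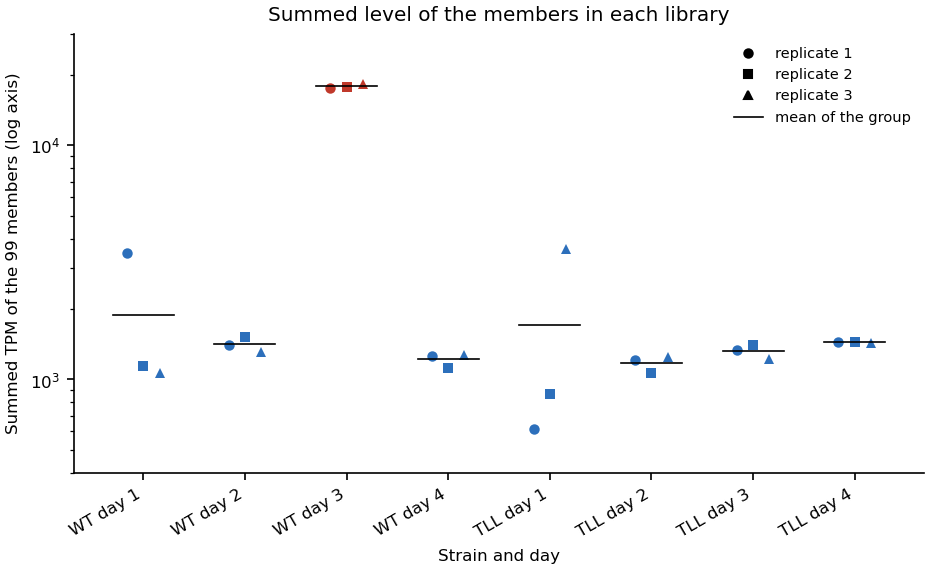
Each marker is a library, with the summed TPM of the 99 peak genes on a log axis, and bars are group means of 3 libraries. The WT day 3 libraries lie at 17661 to 18257 TPM, and WT day 1 replicate 1 (3453 TPM) and TLL day 1 replicate 3 (3626 TPM) lie above the other replicates of their groups.

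Some peak genes moved strongly in these libraries. In WT day 1 replicate 1, 37 of the 99 genes were at least 2 times both other replicates, against 10.3% of the 9558 genes. In TLL day 1 replicate 3 this held for 54 of 99, against 18.5%. Both at once held for 32 of 99, or 32.3%, against 8.01%. NRRL3_00398, singled out after its values were seen, stood at 867, 5.13 and 3.81 TPM in WT day 1 replicates 1, 2 and 3 and at 2.54, 79.13 and 800 TPM in TLL day 1. In WT day 3 it held 1217, 1273 and 1327 TPM. Other peak genes were lower in these libraries. NRRL3_08695 held 2.03 TPM in WT day 1 replicate 1 and 51.82 and 39.96 TPM in replicates 2 and 3. At most 1/2 of both other replicates was found in 11 of 99 for WT day 1 replicate 1, against 9.90% of genes, and in 5 of 99 for TLL day 1 replicate 3, against 2.70%. It held in both libraries at once for 4 of 99, against 1.63%. Of the 3 WT days other than day 3, day 1 had the highest mean in 45 of the 99 genes, against 40.7%. The part of these libraries in the results below was not tested beyond the values given without them. Without both libraries 109 genes met the limits, 96 of them among the 99.

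Many peak genes had another peak gene next to them in the ID order, a property that their choice did not use. Of the 99 genes, 32 (32.3%) had a peak gene at the next ID number on either side. Among the other genes kept for tests, 132 were next to a peak gene and 9327 were not. Peak genes are 0.836% of all IDs, a share that counts single IDs and not neighbours on either side. With up to 2 IDs between, 34 genes fell into 13 runs of 2 to 5. Among the 57 genes that met the same limits in TLL day 4, 4 (7.02%) had such a neighbour. Among the 34 of WT day 1 it was 9 (26.5%), and 13 (38.2%) with up to 2 IDs between, a share not below the 34.3% of the 99 genes. IDs that were next to a peak gene but missed the limits also often had their highest mean in WT day 3. This was so for 52 of 132 (39.4%) such IDs kept for tests, against 10.2% of the 9327 genes that were neither peak genes nor next to one. The ID order stands in for position here, since no genome coordinates of these IDs were used.

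The longest run ran from NRRL3_06288 to NRRL3_06295 and held 5 peak genes with 3 other IDs between them. NRRL3_06289 stood at 27.22, 30.84 and 32.12 TPM in the WT day 3 libraries and at no more than 1.11 TPM in any other. NRRL3_06288, NRRL3_06290 and NRRL3_06292 had WT day 3 means of 13.3 ± 2.22, 15.9 ± 3.36 and 21.1 ± 3.33 TPM (SD, n = 3 each), with highest other means of 1.46, 0.160 and 1.12 TPM. NRRL3_06295 was at 61.9 ± 5.22 TPM (SD, n = 3), with 11.3 TPM in TLL day 2. Of the IDs between, NRRL3_06291 had a mean of 3.93 TPM in WT day 3 and 0.0533 TPM in its next highest group, and NRRL3_06293 had 1.46 and 0.113 TPM. Both missed only the abundance limit. NRRL3_06294, at a mean of 345 TPM in WT day 3, missed the ratio with 166 TPM in TLL day 3. The whole stretch from NRRL3_06288 to NRRL3_06295 was thus highest in WT day 3, whereas the next IDs on both sides, NRRL3_06287 and NRRL3_06296, were not.

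NRRL3_11480 to NRRL3_11483 formed a run of 4 consecutive IDs. NRRL3_11481 and NRRL3_11482, with WT day 3 means of 343 ± 166 and 263 ± 116 TPM (SD, n = 3 each), were under 2 TPM in every library outside WT day 3 and TLL day 4. NRRL3_11483 was present throughout, at 42.35, 28.26 and 55.51 TPM in WT day 3 and 2.94 to 10.61 TPM elsewhere. On one side of the run NRRL3_11479 was listed at 0 in WT day 3, and on the other NRRL3_11484 had its highest mean, 65.6 TPM, in TLL day 4.

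NRRL3_04320 to NRRL3_04322 held the most abundant gene in the middle. NRRL3_04322 was less strictly tied to WT day 3 than its neighbours. It stood at 80.84, 90.18 and 80.04 TPM in WT day 3, at 21.13, 21.33 and 26.06 TPM in TLL day 4 and at 12.02, 13.40 and 13.44 TPM in WT day 4. NRRL3_00069 to NRRL3_00071 were the fourth run, ahead of NRRL3_02448 to NRRL3_02450, also 3 genes, by summed WT day 3 TPM (176 against 92.7). Its last gene, NRRL3_00071, had 112, 111 and 109.9 TPM in WT day 3 and at most 1.85 TPM elsewhere. NRRL3_00069 and NRRL3_00070 averaged 36.9 ± 0.369 and 27.6 ± 4.46 TPM (SD, n = 3 each) in WT day 3, with their highest other means, 5.93 and 4.62 TPM, in TLL day 4. The other 9 runs held 2 or 3 genes each. Their highest ratios ranged from 3.59 for NRRL3_01855 and NRRL3_01856 to 585 for NRRL3_02940 and NRRL3_02941.

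**Figure D4:**
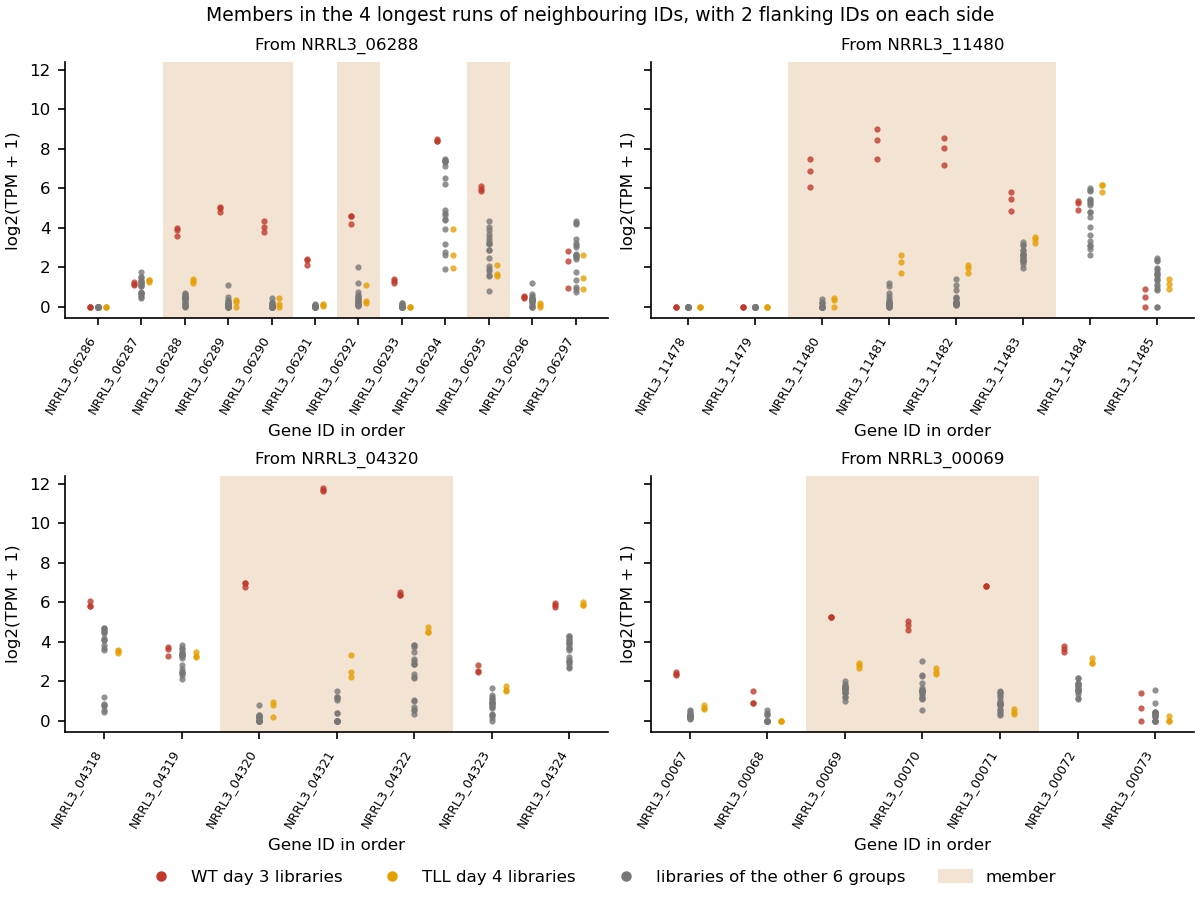
Points are libraries, as log2(TPM + 1), for 4 runs, the longest with ties ordered by summed WT day 3 TPM, and 2 IDs on each side, in ID order; peak genes are shaded. WT day 3 libraries (red) lie above all others at every shaded ID. All TLL day 4 libraries (orange) come next at NRRL3_11481, NRRL3_11482, NRRL3_04321, NRRL3_04322, NRRL3_00069 and NRRL3_06288, and not at the other shaded IDs.

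By the way the genes were chosen no TLL group reached the WT day 3 level, and TLL day 4 was the next highest group more often than any other. It was so in 40 of the 99 genes, against 28.3% of all 9558 genes. These means also chose the genes, and 9 of the 99 were kept only through WT day 3. The ranks are therefore described here and not tested. TLL day 1 was next highest in 16, WT day 1 and WT day 4 in 11 each, WT day 2 and TLL day 2 in 7 each, and TLL day 3 in 6. The day 1 means include both day 1 libraries that lay apart, and ranks without them are not given here. TLL day 4 was the highest of the 4 TLL days in 45 of 99, against 31.3%, and the lowest in 17 of 99, against 30.2%. As a share of the WT day 3 mean it had a median of 10.7% and reached 32.4% in NRRL3_02735, close to the most that the limits allow. NRRL3_02735 stood at 140, 133 and 147 TPM in WT day 3 and at 40.76, 47.41 and 48.16 TPM in TLL day 4. In that gene WT day 4 overlapped TLL day 4, at 45.27, 39.86 and 48.53 TPM. NRRL3_02106 came second, at 29.7%, and was as high in TLL day 3, at 5.03, 5.58 and 4.07 TPM, as in TLL day 4, at 4.51, 4.99 and 3.9 TPM.

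Comparisons that leave WT day 3 out used limma on log2(TPM + 1) for the 9558 genes, with a call at an adjusted p under 0.05 (Benjamini-Hochberg). All 99 peak genes entered, 9 of them only through their WT day 3 values. Between TLL day 3 and TLL day 4, 27 of the 99 genes rose and 8 fell, while 64 did not pass. Over all genes tested 47.4% passed, 21.7% as a rise and 25.7% as a fall. Of the 90 peak genes with 3 or more libraries at 1 TPM outside WT day 3, fitted under that filter, 24 rose and 8 fell, against 47.9% of all genes that passed. The 35 calls became 56 on the compared libraries alone, 57 without both day 1 libraries that lay apart and 65 with library weights, while those of all genes became 63.8%, 60.9% and 72.2%. Estimation of the library weights stopped before convergence, which holds for every weighted count below. The median log2 change was 0.20 over the 99 genes and -0.02 over all genes. Of the called peak genes, 20 that rose and 6 that fell changed at least 2-fold on the log2(TPM + 1) scale. The same count was not made over all genes, so these numbers do not set the peak genes apart.

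NRRL3_08695 rose in this step from 5.29, 6.35 and 7.68 TPM in TLL day 3 to 45.27, 44.40 and 44.48 TPM in TLL day 4 (log2 change 2.63, SE 0.62, limma adjusted p = 0.00166). In WT day 3 it held 833, 750 and 902 TPM, so TLL day 4 stayed far below that level. NRRL3_04321 rose from a listed 0 in every TLL day 3 library to 8.88, 4.41 and 3.69 TPM on day 4 (limma adjusted p = 1.76e-05), which allows no fold. NRRL3_01180 fell from 13.76, 14.68 and 12.76 TPM to 0.490, 0.610 and 0.480 TPM (log2 change -3.27, SE 0.66, limma adjusted p = 0.000436). NRRL3_05464 fell from 8.00, 7.14 and 6.85 TPM to 0, 1.13 and 1.12 TPM (log2 change -2.33, SE 0.65, limma adjusted p = 0.00634). No libraries of both days overlapped in these 4 genes. Of the 34 genes in runs of neighbouring IDs, 28 are among those 90. In the fit of all 9558 genes, 14 of the 28 rose and 3 fell, against 21.7% and 25.7% of all genes. The 14 include NRRL3_04321 and NRRL3_04322, NRRL3_11481 to NRRL3_11483, and NRRL3_08695 and NRRL3_08696, all higher in TLL day 4. The 3 that fell are NRRL3_01243, NRRL3_02449 and NRRL3_06295.

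On day 4 the strains differed in 43 of the 99 genes, 29 higher and 14 lower in TLL, against 54.1% that differed, 27.3% higher and 26.8% lower over all genes. The median log2 difference was 0.26, against 0.03. Library weights gave 66 genes, 43 higher and 23 lower, beside 71.1% of all genes. These values share the TLL day 4 libraries with the step just described. The 99 genes include the 9 that entered only through WT day 3, and no count without them is given for this comparison. Both directions held genes with wide gaps between the strains. NRRL3_01367 held 10.86, 11.54 and 10.77 TPM in TLL day 4 and 0.540, 0.770 and 0.650 TPM in WT day 4 (log2 difference 2.87, SE 0.39, limma adjusted p = 5.03e-06). NRRL3_08695 was higher in TLL by 2.61 (SE 0.62, limma adjusted p = 0.00147), with WT day 4 at 5.61, 7.09 and 6.88 TPM. NRRL3_09151 was lower, at 6.09, 2.55 and 3.47 TPM in TLL and 24.02, 23.16 and 42.54 TPM in WT (log2 difference -2.62, SE 0.28, limma adjusted p = 2.01e-07). NRRL3_01180, at 10.36, 5.14 and 9.39 TPM in WT day 4, was lower in TLL by a log2 difference of -2.56 (SE 0.66, limma adjusted p = 0.00278).

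**Figure D5:**
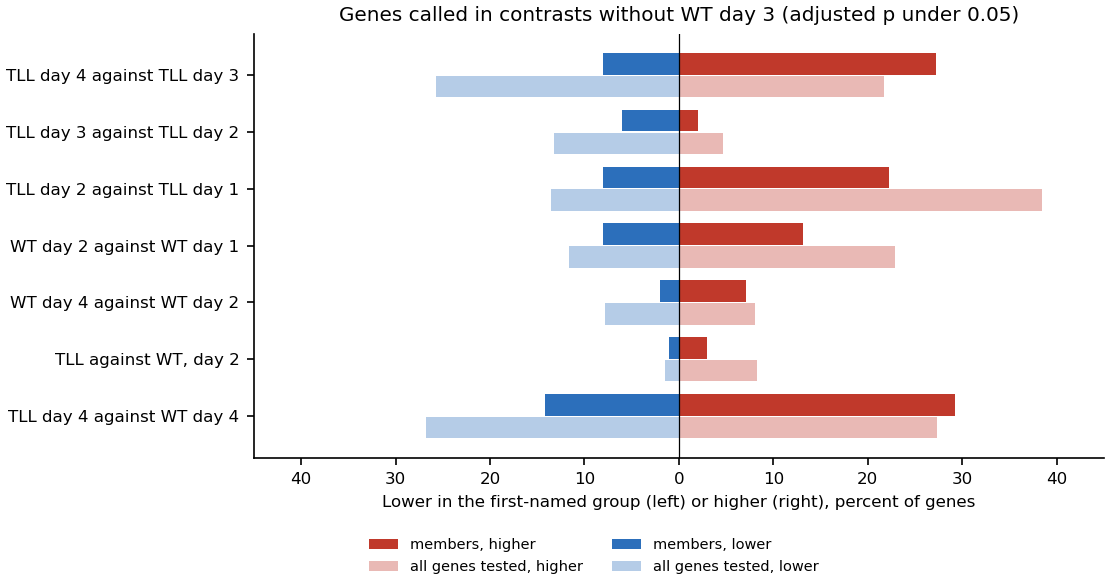
Bars give the percent of genes called higher (right) or lower (left) in the first-named group, for the 99 peak genes (dark) and all 9558 genes tested (light). In TLL day 4 against TLL day 3, 27.3% of peak genes were higher and 8.08% lower, against 21.7% and 25.7% of all genes.

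WT was also compared between the days before and after the peak. Between WT day 2 and WT day 4, 9 of the 99 genes passed the test, 7 higher and 2 lower on day 4, against 15.8% that passed, 8.07% higher and 7.77% lower over all genes. The median log2 change of the 99 genes was 0.00, and 90 genes did not pass, which does not show that they were equal. The 9 calls became 22 on the compared libraries alone, 27 without both day 1 libraries that lay apart and 51 with library weights, beside 20.9%, 31.3% and 48.1% of all genes. NRRL3_04322 rose from 6.40, 3.47 and 3.69 TPM to 12.02, 13.40 and 13.44 TPM (log2 change 1.38, SE 0.19, limma adjusted p = 2.66e-05). NRRL3_01855 rose from 1.73, 1.65 and 1.37 TPM to 4.41, 6.64 and 5.07 TPM (log2 change 1.29, SE 0.37, limma adjusted p = 0.0196), a call lost without WT day 2 replicate 3 or WT day 4 replicate 2. NRRL3_01367 fell from 6.88, 5.97 and 3.03 TPM to 0.540, 0.770 and 0.650 TPM (log2 change -1.87, SE 0.39, limma adjusted p = 0.0019). NRRL3_08045 fell from 20.39, 21.35 and 25.69 TPM to 6.06, 8.74 and 5.14 TPM (log2 change -1.64, SE 0.38, limma adjusted p = 0.00489).

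On day 2, the labelled day before the WT peak, 3 of the 99 genes were higher and 1 lower in TLL than in WT. Over all genes 9.71% differed, 8.22% as higher and 1.49% as lower. NRRL3_11110 held 7.31, 5.41 and 5.32 TPM in TLL and 1.87, 1.87 and 1.31 TPM in WT (log2 difference 1.38, SE 0.28, limma adjusted p = 0.00437). NRRL3_01367 was the lower gene, at 0.410, 0.240 and 0.270 TPM in TLL against 6.88, 5.97 and 3.03 TPM in WT (log2 difference -2.21, SE 0.39, limma adjusted p = 0.00161). The count and its balance depended on the fit. It became 2 without TLL day 2 replicate 2, when 3.36% of all genes were called, and 21 (11 higher, 10 lower) without both day 1 libraries that lay apart, with 29.3%. The balance turned to 4 higher and 6 lower on the compared libraries alone, with 9.71% of all genes called, and to 21 higher and 23 lower with library weights, with 55.3%.

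From TLL day 2 to TLL day 3, 2 of the 99 genes rose and 6 fell, against 17.9% of all genes that passed, 4.69% and 13.2% by direction. NRRL3_10231 rose from 7.64, 4.74 and 8.46 TPM to 26.35, 23.69 and 28.18 TPM (log2 change 1.80, SE 0.28, limma adjusted p = 0.000143). That TLL day 3 level was the highest outside WT day 3. NRRL3_11110 fell to 0.920, 0.590 and 1.03 TPM (log2 change -1.92, SE 0.28, limma adjusted p = 6.48e-05). NRRL3_09151 fell from 49.65, 25.13 and 32.70 TPM to 15.83, 12.92 and 11.72 TPM (log2 change -1.30, SE 0.28, limma adjusted p = 0.0024). After median-of-ratios scaling 4 were higher and 6 lower, with the share of all genes called not given here. Quantile normalization turned the balance to 7 and 4. The median log2 change of all genes went from -0.16 to -0.02 with median-of-ratios scaling and to 0.00 with quantile normalization. Leaving out both day 1 libraries that lay apart gave 14 and 10. The compared libraries alone gave 12 and 10, and library weights 18 and 18. All genes called were 16.5% after quantile normalization, 33.1% without both libraries, 27.4% on the compared libraries and 50.8% with weights.

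From day 1 to day 2, 13 of the 99 genes rose and 8 fell in WT, against 34.5% of all genes that passed, 22.9% and 11.6% by direction. In TLL 22 rose and 8 fell, against 52.0%, 38.4% and 13.6%. Median-of-ratios scaling gave 12 and 12 in WT and 17 and 11 in TLL. The shares of all genes called under that scaling are not given here, so these counts alone do not set the peak genes apart. The balance turned under quantile normalization, to 8 that rose and 20 that fell in WT and to 13 and 26 in TLL. All genes shifted as well under these scalings. Their median log2 change went from 0.07 to -0.04 (median-of-ratios) and -0.13 (quantile) in WT. In TLL it went from 0.28 to -0.03 and -0.18. Without both day 1 libraries that lay apart 43 genes passed in WT and 58 in TLL, beside 53.3% and 66.6% of all genes, and with library weights 57 and 71, beside 65.9% and 81.5%. NRRL3_10304 rose in both strains. In WT the day 1 libraries stood at 9.25, 1.47 and 1.75 TPM, and those of day 2 at 23.82, 23.82 and 22.92 TPM (log2 change 2.58, SE 0.46, limma adjusted p = 0.000204). In TLL it went from 0.900, 1.91 and 9.01 TPM to 23.36, 19.11 and 19.50 TPM (log2 change 2.5, SE 0.46, limma adjusted p = 0.00014). NRRL3_03871 fell in WT from 3.19, 42.25 and 31.67 TPM to 0, 0 and 1.01 TPM (log2 change -3.84, SE 0.78, limma adjusted p = 0.000657). NRRL3_01243 rose in WT from 4.36 to 24.1 TPM in the mean (log2 change 2.22, SE 0.28, limma adjusted p = 3.52e-06), and NRRL3_10168 fell from 5.04 to 0.333 TPM (log2 change -1.95, SE 0.34, limma adjusted p = 0.000153).

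Several day 1 values in TLL rested on replicate 3. NRRL3_01166 fell from 7.45, 11.82 and 68.80 TPM to 7.08, 6.50 and 6.12 TPM (log2 change -1.38, SE 0.52, limma adjusted p = 0.0335). In the absence of TLL day 1 replicate 3 its log2 change was -0.46, and the call was lost. NRRL3_01362 rose from 56.57, 25.50 and 0 TPM to 68.53, 100.63 and 242.6 TPM (log2 change 3.38, SE 1.33, limma adjusted p = 0.0398). When that library was left out its log2 change was 1.62, and the call was lost. NRRL3_11421 fell from 49.90, 62.30 and 181 TPM to 37.60, 31.44 and 41.56 TPM (log2 change -1.15, SE 0.31, limma adjusted p = 0.00385), with -0.59 without that library. In WT the count of 21 calls became 13 without WT day 2 replicate 1, with 24.8% of all genes called.

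The strains were also compared in how they changed, by limma's interaction test, added after the data were seen. From day 2 to day 4 the change differed in 29 of the 99 genes, 18 toward TLL and 11 toward WT, against 41.1% of all genes, 14.3% and 26.9% by direction. From day 1 to day 2 it differed in 4 genes, 3 toward TLL and 1 toward WT, against 9.53%, 8.51% and 1.03%. Leaving out TLL day 1 replicate 3 gave 22 such genes, WT day 1 replicate 1 gave 12, and TLL day 2 replicate 2 gave 1, with 22.3%, 18.5% and 5.82% of all genes called. For the change from day 2 to day 4, 46 genes differed without both day 1 libraries that lay apart and 56 with library weights, with 54.5% and 65.7% of all genes called.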

How the data were processed

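Illumina libraries were made from total RNA of hyphae, per the labels' protocols. TPM values were computed by the authors and deposited as 1 table of 24 libraries. HISAT2, StringTie and Cufflinks are named in the submitters' processing notes with no roles or versions, and the table's name refers to RSEM. Which genome build and gene models served was not given in the sources used here. Since TPM is relative, a rise of abundant genes lowers the values of others.

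The genes and tests were chosen with earlier results of these data known. Values were taken as log2(TPM + 1), a scale that understates changes near 1 TPM. The 9558 genes with 3 or more libraries at 1 TPM or above were fitted with a mean for each of 8 groups in limma 3.58.1 (R 4.3.3) with a mean-variance trend and 16 residual degrees of freedom. Tests were two-sided and adjusted over all genes by Benjamini-Hochberg. The fit was checked on simulated data with independent normal noise around each gene's mean and 1 group raised in some genes. No simulated library lay apart, so that check does not cover the day 1 libraries that did. All comparisons shared 1 residual spread over the 24 libraries. Alternatives covered the limits, pseudocount, filter, scaling, library weights, replicate block, samples fitted and single libraries left out.

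Genes were named by rank: the 2 most abundant, the 2 largest ratios, those nearest each limit, those under 1 TPM elsewhere, the 4 longest runs of IDs at most 3 apart (ties by summed WT day 3 TPM), the 2 highest TLL day 4 shares, and per comparison the 2 largest called changes each way with at least 5 TPM and no overlap. NRRL3_02940 and its neighbour, NRRL3_00398, NRRL3_03465, NRRL3_01856, NRRL3_08696, NRRL3_11481 as a replicate pattern, NRRL3_08370, NRRL3_03764 and the runs' flanking IDs were chosen after their values were seen. So were NRRL3_01443, NRRL3_04660, NRRL3_05464, NRRL3_08695 and NRRL3_09685 for the interaction test. Figures used matplotlib 3.10.9 in Python 3.11.15.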

Additional observations from a re-analysis of the deposited data

Results flagged for a closer look

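The change from day 2 to day 4 differed between the strains in 29 of the 99 peak genes by limma's interaction test (adjusted p under 0.05), with a TLL minus WT value above 0 in 18 and below 0 in 11, against 14.3% and 26.9% of all genes. This comparison leaves WT day 3 out, though 9 of the 99 genes entered only through it, and was added after the data were seen. The genes named here were first picked for their large change from WT day 2 to WT day 4. That change is part of the interaction, so its sign was largely set by the choice. NRRL3_04322, picked the same way, did not pass (0.52, SE 0.27, limma adjusted p = 0.13). Among genes not picked, NRRL3_01443 stood at -3.45, NRRL3_05464 at -3.15, NRRL3_04660 at -2.75, NRRL3_08695 at 3.10 and NRRL3_09685 at 2.88. NRRL3_01367 differed by a log2 value of 5.08 (SE 0.55, limma adjusted p = 5.54e-07), since it fell in WT from a mean of 5.29 to 0.653 TPM and went in TLL from 0.307 to 11.1 TPM. NRRL3_08045 differed by 2.71 (SE 0.54, limma adjusted p = 0.000479), from 22.5 to 6.65 TPM in WT and from 12.7 to 28.8 TPM in TLL. NRRL3_01855 differed by -1.42 (SE 0.52, limma adjusted p = 0.0342), from 1.58 to 5.37 TPM in WT and from 2.31 to 2.01 TPM in TLL.

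The step from day 1 to day 2 differed between the strains in 4 of the 99 genes by the same test, with TLL minus WT above 0 in 3 and below 0 in 1, against 8.51% and 1.03% of all genes. This count was 22 without TLL day 1 replicate 3 and 12 without WT day 1 replicate 1, and the part of these libraries in it was not tested further.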

How the results depend on the processing

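The number of peak genes moved most with the limits. It was 181 at 2 times the highest other mean, 52 at 5 times, and 165 with TLL day 4 left out of the other groups. Under the other limits, scalings and omitted WT day 3 replicates it stayed between 78 and 118, and each WT day 3 replicate left out kept 97 or 98 of the 99.

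Counts of called peak genes depended on the spread that the fit shared over libraries. With library weights, whose estimation stopped before convergence, they were 65 for TLL day 4 against day 3, 36 for TLL day 3 against day 2, 71 and 57 for day 2 against day 1 in TLL and WT, 51 for WT day 4 against day 2, 44 for the strains on day 2 (21 higher, 23 lower) and 66 for the strains on day 4. Calls over all genes were then 72.2%, 50.8%, 81.5%, 65.9%, 48.1%, 55.3% and 71.1%. Without both day 1 libraries that lay apart, an alternative chosen after seeing the data, they were 57, 24, 58, 43, 27, 21 and 60 in the same order, beside 60.9%, 33.1%, 66.6%, 53.3%, 31.3%, 29.3% and 65.0% of all genes. On the compared libraries alone they were 56 for TLL day 4 against day 3, 22 for TLL day 3 against day 2 (12 higher, 10 lower), 22 for WT day 4 against day 2 and 10 for the strains on day 2 (4 higher, 6 lower), beside 63.8%, 27.4%, 20.9% and 9.71%. Quantile normalization gave 11, 39 and 28 calls for TLL day 3 against day 2 and for day 2 against day 1 in TLL and WT, with the balance turned, 14 for WT day 4 against day 2, and 3 for the strain difference of the first step (1 higher, 2 lower), beside 16.5%, 58.3%, 41.1%, 19.3% and 6.89%. It moved the median of all genes in the first TLL step from 0.28 to -0.18, and median-of-ratios scaling moved it to -0.03. For TLL day 3 against day 2 it went from -0.16 to 0.00 (quantile), for the strains on day 2 from 0.19 to 0.01, and for the first WT step from 0.07 to -0.13. The causes of these shifts were not tested beyond the alternatives' own construction.

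Without a single compared library the counts ran from 28 to 31 for TLL day 4 against day 3, 6 to 7 for TLL day 3 against day 2, 25 to 43 and 13 to 30 for day 2 against day 1 in TLL and WT, 6 to 10 for WT day 4 against day 2, 2 to 4 for the strains on day 2 and 32 to 41 on day 4. Under every alternative run, more peak genes were higher than lower in TLL day 4, both against TLL day 3 and against WT day 4. With a replicate block the counts were 35, 8, 29, 21, 10, 4 and 41 in the order used for the weights. Shares of all genes called are not given here for the single omissions or the block. These counts alone therefore do not set the peak genes apart from other genes. The only named call the replicate block ended was that of NRRL3_01362 in TLL day 2 against day 1 (limma adjusted p = 0.0529). Same-numbered libraries of compared groups deviated together at r between -0.19 and 0.17, so the numbers were not taken as pairs. Depth is unknown in TPM, so the counting error of values under 1 TPM cannot be given.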
